A study of Homo sapiens with 9 samples.

Results

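The integrated stress response and amino acid genes are a set of 10 genes, chosen by name with earlier results of these data known. The set holds the stress effectors DDIT4, SESN2, TRIB3 and CHAC1, the amino acid synthesis enzymes ASNS, PHGDH, PSAT1 and PSPH, and the transporter subunits SLC3A2 and SLC7A5. These genes are 10 of 57796 gene symbols over which the transcript values of the series were summed, and all 10 were among the 15109 genes that passed the filter on low counts. The data were mRNA sequencing of MCF10A-YAP cells, in 3 groups of 3 libraries lettered A, B and C. MCF10A is an immortalised, non-transformed human breast epithelial line, and the MCF10A-YAP cells of all 3 groups overexpressed a constitutively active YAP, the transcription coactivator held in check by the Hippo pathway. Cells of the first group had received the guide RNA TRAM2-KO1 and cells of the second TRAM2-KO2, each directed at TRAM2, while the control cells carried a non-targeting guide. All were kept in medium with horse serum, EGF, insulin and hydrocortisone, and RNA was taken before full confluency once selection with antibiotic was complete. The labels name no clone, and the study reported an incomplete TRAM2 knockout, by DNA mutation and western blot, in cells targeted this way. Each library may therefore hold edited and unedited cells. The design text of the series speaks instead of empty vector, TRAM2-overexpressing and YAP-overexpressing cells, and the groups here follow the sample labels. That text calls the replicates biological, but no label gives their separate origin, so p values measure the spread between these libraries, which may be technical.

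The integrated stress response begins when kinases that sense amino acid shortage (GCN2, gene EIF2AK4), unfolded protein in the endoplasmic reticulum (PERK, gene EIF2AK3), double-stranded RNA or haem shortage phosphorylate the translation initiation factor eIF2. Most translation then slows, while the mRNA of the transcription factor ATF4 is translated better, and ATF4 with its partners raises genes for amino acid synthesis, amino acid import and tRNA charging, and brakes on mTORC1 growth signalling. TRAM2 belongs to the translocon, the channel through which nascent secretory and membrane proteins enter the endoplasmic reticulum, the compartment that PERK watches. Since ATF4 is controlled largely at the level of translation and of protein stability, mRNA of its targets is the usual readout of its activity in sequencing data.

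ATF4 acts as a dimer with C/EBP proteins at composite elements, and the promoters of members that hold one show what such an element looks like. Letters of the core TGATGNAA were searched on both strands in the RefSeq promoters on GRCh38.p14, each with 250 bases before and 50 after a transcription start. The table held promoters of 9 of the 10 genes, PSPH being the one without an entry. The motif was present in at least 1 promoter of 3 of these 9 genes, ASNS, CHAC1 and SLC3A2. Counted per promoter and not per gene, it was in 3.62% of the 35116 promoters of the table. ASNS, SLC3A2 and TRIB3 had more than 1 promoter there. The SLC3A2 match was in 1 of its promoters and began 37 bases after the start site. Below, 60 bases of the ASNS promoter (chr7:97872443-97872502, minus strand, with the motif starting 68 bases before the start site) and of the CHAC1 promoter (chr15:40953236-40953295, plus strand, with the motif on the other strand 209 bases before the start) are given 5′ to 3′ with the matched letters in capitals.
ASNS: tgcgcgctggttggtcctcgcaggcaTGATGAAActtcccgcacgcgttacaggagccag
CHAC1: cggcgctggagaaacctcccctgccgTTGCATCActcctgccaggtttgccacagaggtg
These are matches of letters and no binding was measured. Of the 2 genes shown, neither passed the test in any of the comparisons described below. Promoters of DDIT4, SESN2, PHGDH, PSAT1, SLC7A5 and TRIB3 held no match in this window, and sequence outside it was not searched. A link between the motif and the changes described below was not tested.

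Libraries held between 21.7 and 27.6 M estimated reads. The targeted gene was lower in every edited library. TRAM2 had 219, 209.9 and 203 CPM (counts per M reads of the adjusted library size) in TRAM2-KO1 libraries A, B and C, 216, 212 and 210.5 CPM in TRAM2-KO2 libraries and 481, 464 and 475 CPM in control libraries. Of the basal epithelial markers fixed for these cells, 11 of 12 were above 1 TPM (transcripts per M, scaled by length) in all libraries, and no fibroblast or endothelial marker was. Of 5 immune markers 1 was, the lysosomal gene CD68 at 33.9 to 44.6 TPM (named after its values were seen), while CD3E was at 0 and PTPRC and LYZ reached at most 0.042 and 0.209 TPM. Libraries TRAM2-KO1 B and C stood apart in base composition: the Spearman correlation across genes between GC content and a library's deviation from the mean was −0.53 and −0.36 for them, and between −0.09 and 0.40 for the other 7 libraries.

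The main result for the 10 genes was that DDIT4 alone changed with both guides. In TRAM2-KO1 cells 0 of the 10 genes rose and 1 fell at an adjusted p under 0.05 (edgeR's quasi-likelihood test, Benjamini-Hochberg over all genes), where 0.761% of all tested genes rose and 2.20% fell. In TRAM2-KO2 cells 0 of the 10 rose and 1 fell, beside 1.75% and 2.50% of all genes. Between the guides, 1 of the 10 was higher in TRAM2-KO2 than in TRAM2-KO1 cells and 0 were lower, beside 1.42% and 0.867% of all genes. The median log2 fold change of the 10 genes was −0.05 for TRAM2-KO1 and 0.08 for TRAM2-KO2 against control, where the medians of all tested genes were 0.0050 and −0.0031. At an unadjusted p under 0.05, there were 3 of the 10 genes with TRAM2-KO1, 5 with TRAM2-KO2 and 3 between the guides, beside 18.6%, 15.0% and 19.9% of all tested genes. By DESeq2, 1 of the 10 genes passed with TRAM2-KO1 (DDIT4) and 2 each with TRAM2-KO2 (DDIT4 and SLC7A5) and between the guides (SLC7A5 and SLC3A2), beside 6.05%, 4.77% and 5.31% of the genes with an adjusted p in DESeq2. Both comparisons with control use the same 3 control libraries, and in RNA from whole cultures fewer cells expressing a gene and less RNA per cell cannot be told apart.

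**Figure D1:**
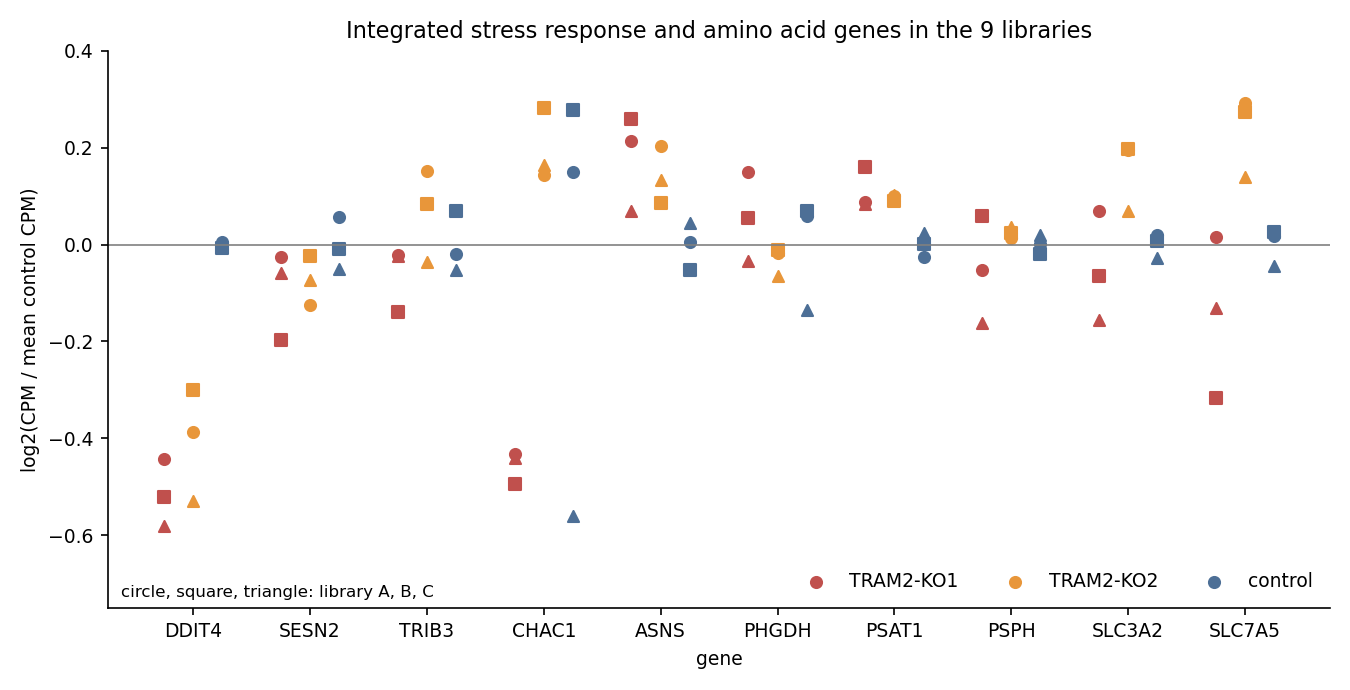
Level of each of the 10 genes in each of the 9 libraries, as the log2 ratio of its CPM to the mean CPM of the 3 control libraries (y axis), with TRAM2-KO1, TRAM2-KO2 and control libraries from left to right within each gene and circles, squares and triangles for libraries A, B and C. All 6 edited libraries lie below all 3 control libraries for DDIT4, and all 3 TRAM2-KO2 libraries lie above all 3 TRAM2-KO1 libraries for SLC7A5.

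DDIT4 (chromosome 10, GRCh37 74033678 to 74035794, plus strand) encodes REDD1, which restrains mTORC1 through the TSC complex and responds to ATF4, hypoxia, glucocorticoids and p53. It had 51.1, 48.4 and 46.4 CPM in TRAM2-KO1 and 53.1, 56.3 and 48.1 CPM in TRAM2-KO2 libraries, against 69.7, 69.0 and 69.6 CPM in control libraries. The control values lay within 1 CPM of each other and no edited library came near them. In TRAM2-KO1 cells DDIT4 fell by 29.9% (log2 fold change −0.51, SE 0.0565, 95% interval −0.64 to −0.39, adjusted p = 0.00062). In TRAM2-KO2 cells it fell by 24.4% (log2 fold change −0.40, SE 0.0559, interval −0.53 to −0.28, adjusted p = 0.0022). The guides did not differ detectably (TRAM2-KO2 against TRAM2-KO1, log2 fold change 0.11, interval −0.02 to 0.24, adjusted p = 0.317). By the limits that the study used, an adjusted p under 0.05 and a log2 fold change beyond 0.5, DDIT4 was called in TRAM2-KO1 cells, as were 0.496% of all genes, and not in TRAM2-KO2 cells, where 0.649% were. None of the 10 genes was called between the guides, where 0.477% of all genes were. Correction for GC content of each library moved the TRAM2-KO1 value to −0.41, still past the test and inside that limit. With transcript length offsets the fall in TRAM2-KO2 cells no longer passed (log2 fold change −0.38, adjusted p = 0.0684).

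**Figure D2:**
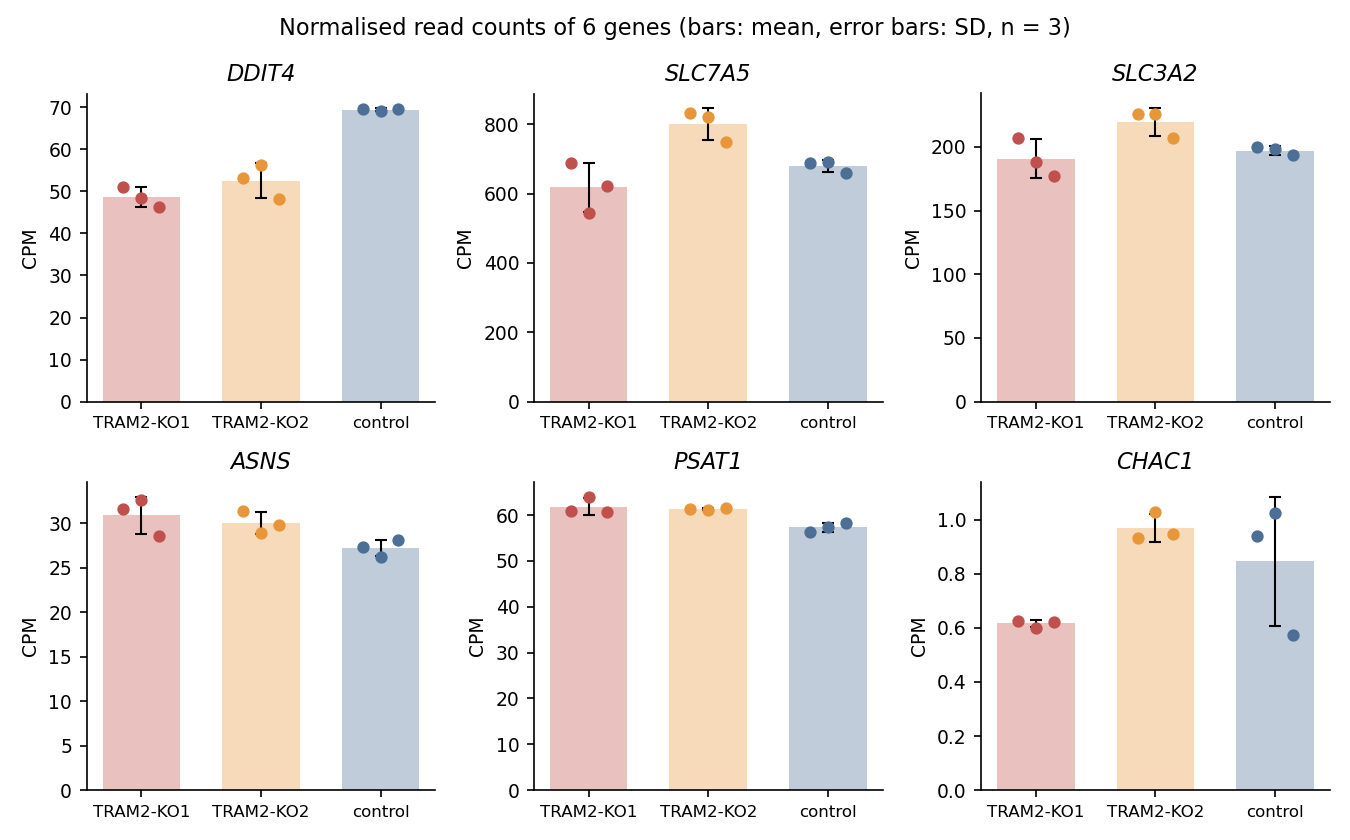
Normalised read counts (CPM, y axis from 0) of DDIT4, SLC7A5, SLC3A2, ASNS, PSAT1 and CHAC1 in TRAM2-KO1, TRAM2-KO2 and control libraries, with points for single libraries, bars for means and error bars for the SD over 3 libraries. DDIT4 averaged 48.6 and 52.5 CPM with the 2 guides, against 69.4 CPM in control.

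The other stress effectors showed no change past the test. SESN2, a sestrin that binds leucine and restrains mTORC1 through GATOR2, had 21.6, 19.2 and 21.1 CPM in TRAM2-KO1 and 20.2, 21.7 and 20.9 CPM in TRAM2-KO2 libraries, against 22.9, 21.9 and 21.3 CPM in control libraries. Its groups overlapped, and its log2 fold changes were −0.09 (interval −0.22 to 0.04) and −0.07 (−0.20 to 0.06). A fall of the size seen for DDIT4 thus lies outside both intervals for SESN2, the other brake on mTORC1 among the 10 genes. TRIB3 encodes a pseudokinase that is induced by ATF4 with DDIT3 and acts back on ATF4. It had 22.6, 20.8 and 22.6 CPM in TRAM2-KO1 and 25.5, 24.3 and 22.4 CPM in TRAM2-KO2 libraries, against 22.6, 24.1 and 22.1 CPM in control libraries, with log2 fold changes of −0.06 (interval −0.20 to 0.08) and 0.07 (−0.07 to 0.21). CHAC1, which degrades glutathione and is among the genes most strongly induced by ATF4, was barely expressed in these cells. It had 17, 13 and 16 reads in TRAM2-KO1 and 25, 26 and 26 reads in TRAM2-KO2 libraries, against 23, 25 and 14 reads in control libraries. Control library C stood with the TRAM2-KO1 libraries, at 0.574 CPM against 0.600 to 0.626 CPM, so TRAM2-KO1 and control overlapped. The log2 fold changes of CHAC1 were −0.45 (interval −1.03 to 0.12) and 0.20 (−0.34 to 0.74), intervals too wide at this depth to tell a fall with TRAM2-KO1 or a rise with TRAM2-KO2 of moderate size from no change. Between the guides CHAC1 had a log2 fold change of 0.65 (interval 0.09 to 1.21, adjusted p = 0.197) with no overlap of the libraries, and did not pass.

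ASNS, which makes asparagine from aspartate and glutamine and is a standard marker of ATF4 activity, had 31.6, 32.6 and 28.6 CPM in TRAM2-KO1 and 31.4, 28.9 and 29.9 CPM in TRAM2-KO2 libraries, against 27.3, 26.3 and 28.1 CPM in control libraries. All 6 edited libraries lay above the 3 control libraries. The log2 fold changes were 0.18 (SE 0.0593, interval 0.05 to 0.31) and 0.14 (SE 0.0592, interval 0.01 to 0.27), and neither passed the test (adjusted p = 0.146 and 0.284). PSAT1, the transaminase of the serine synthesis pathway, had 60.9, 64.0 and 60.7 CPM in TRAM2-KO1 and 61.4, 61.0 and 61.5 CPM in TRAM2-KO2 libraries, against 56.3, 57.3 and 58.3 CPM in control libraries, again with no overlap. The log2 fold change was 0.11 with TRAM2-KO1 (SE 0.0344, adjusted p = 0.132) and 0.10 with TRAM2-KO2 (SE 0.0343, adjusted p = 0.183). Libraries of the 2 groups compared did not overlap for 3 of the 10 genes with TRAM2-KO1 and for 5 of the 10 with TRAM2-KO2, where 23.0% and 23.7% of all tested genes had no overlap.

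The other enzymes of serine synthesis did not pass the test either. PHGDH, which catalyses the first step, had 23.0, 21.6 and 20.3 CPM in TRAM2-KO1 and 20.5, 20.6 and 19.8 CPM in TRAM2-KO2 libraries, against 21.6, 21.8 and 18.9 CPM in control libraries. PSPH, the phosphatase of the last step, had 20.4, 22.0 and 18.9 CPM in TRAM2-KO1 and 21.3, 21.5 and 21.7 CPM in TRAM2-KO2 libraries, against 21.1, 20.8 and 21.4 CPM in control libraries. The groups overlapped for both genes in both comparisons with control. Log2 fold changes were 0.06 (interval −0.09 to 0.21) and −0.03 (−0.18 to 0.12) for PHGDH, and −0.05 (−0.18 to 0.08) and 0.02 (−0.10 to 0.15) for PSPH, and none of the 4 intervals reached beyond 0.21 on the log2 scale in either direction.

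**Figure D3:**
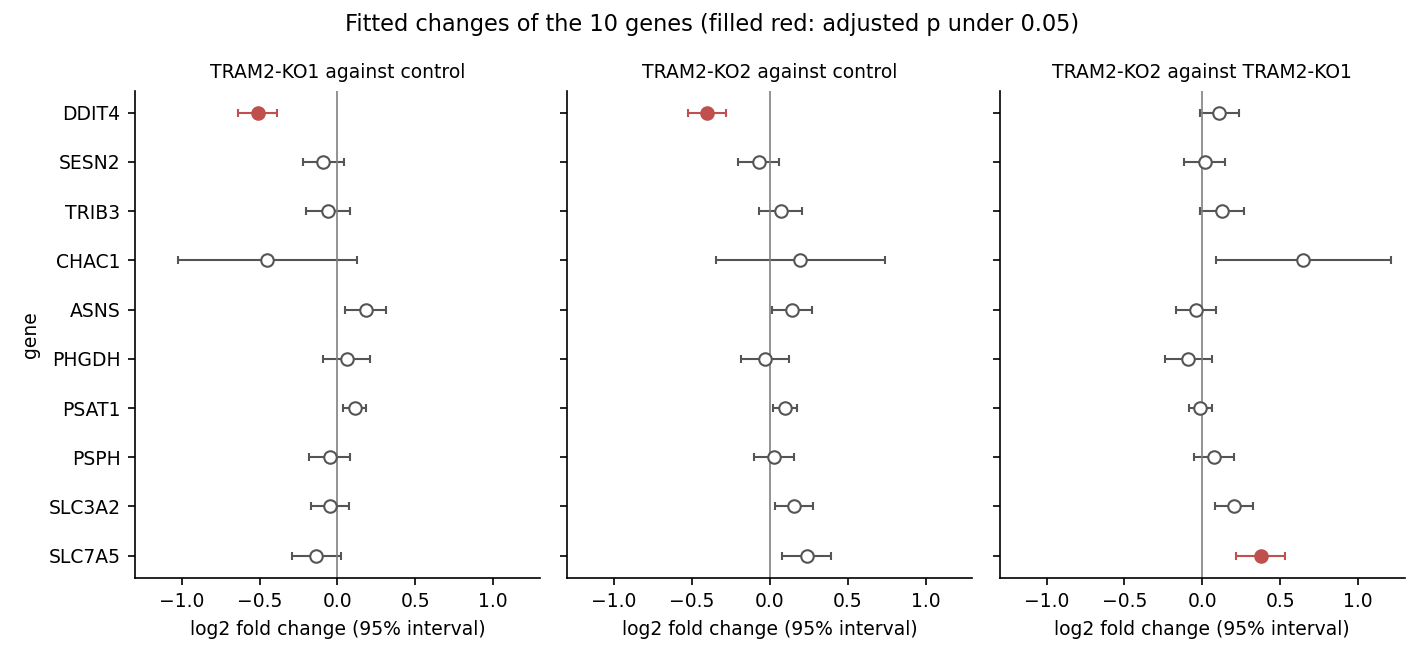
Log2 fold change of each of the 10 genes (x axis, with 95% intervals from the fit over all 9 libraries) for each guide against control and for TRAM2-KO2 against TRAM2-KO1, with filled red points where the adjusted p was under 0.05. DDIT4 passed in both comparisons with control and SLC7A5 in the comparison between guides, while CHAC1 had the widest intervals.

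Of the transporter genes, SLC7A5 differed between the guides. SLC7A5 encodes LAT1, the light chain that carries leucine and other large neutral amino acids, and SLC3A2 encodes 4F2hc (CD98), the heavy chain that brings LAT1 and related light chains to the plasma membrane. SLC7A5 had 687, 545 and 621 CPM in TRAM2-KO1 and 832, 822 and 748 CPM in TRAM2-KO2 libraries, against 688, 692 and 659 CPM in control libraries. It was 29.6% higher in TRAM2-KO2 than in TRAM2-KO1 cells (log2 fold change 0.37, SE 0.0713, interval 0.22 to 0.53, adjusted p = 0.0258), with no overlap between the 2 guides, as was the case for 2 of the 10 genes and for 21.4% of all genes. Neither guide differed from control past the test. The log2 fold change was −0.14 (SE 0.0713, adjusted p = 0.334) in TRAM2-KO1 and 0.24 (SE 0.0712, adjusted p = 0.113) in TRAM2-KO2 cells.

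SLC3A2 passed in none of the 3 comparisons. It had 207, 188 and 177 CPM in TRAM2-KO1 and 226, 226 and 207 CPM in TRAM2-KO2 libraries, against 199.8, 198 and 193 CPM in control libraries. TRAM2-KO2 libraries lay above the control libraries, and TRAM2-KO2 C was level with TRAM2-KO1 A. The log2 fold changes of SLC3A2 against control were −0.05 (adjusted p = 0.695) with TRAM2-KO1 and 0.15 (adjusted p = 0.184) with TRAM2-KO2. The difference between the guides was 0.20 (adjusted p = 0.0877), and without library TRAM2-KO1 A it was 0.26 and passed (adjusted p = 0.00738). The TPM ratio of SLC7A5 to SLC3A2 was 1.06, 0.781 and 0.968 in TRAM2-KO1 libraries and 1.15, 1.11 and 1.09 in TRAM2-KO2 libraries, against 1.05, 1.15 and 1.08 in control libraries. Taken in CPM, the same ratio was 3.32, 2.89 and 3.51 for TRAM2-KO1, 3.69, 3.64 and 3.62 for TRAM2-KO2, and 3.44, 3.49 and 3.41 for control. TRAM2-KO1 B had the lowest ratio on both scales, while TRAM2-KO1 C lay below the control libraries in TPM and above them in CPM.

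Base composition of the libraries moved with the SLC7A5 values. SLC7A5 is GC-rich (61.2% of its longest transcript), and its lowest libraries were TRAM2-KO1 B and C, the 2 libraries in which GC-rich genes were low. With an offset for GC content in each library, the log2 fold change between the guides was 0.22 (adjusted p = 0.00197), that of TRAM2-KO1 against control 0.03 (adjusted p = 0.699) and that of TRAM2-KO2 against control 0.25 (adjusted p = 0.000255). SLC7A5 in TRAM2-KO2 cells also passed, with no GC correction, with DESeq2 (adjusted p = 0.0121), with no filter (0.0238) and in the fit of the 6 libraries compared (0.00548). In all, SLC7A5 in TRAM2-KO2 against control passed in 7 of 17 alternatives and not in 10. Those without a pass included length offsets (adjusted p = 0.268) and the replicate block (0.0922). Leaving out any single control or TRAM2-KO2 library also gave no pass (adjusted p = 0.105 to 0.307). Without library TRAM2-KO1 A, SLC7A5 was lower in TRAM2-KO1 cells than in control (log2 fold change −0.22, adjusted p = 0.0357), the difference between the guides was 0.46 (adjusted p = 0.00231), and SLC7A5 passed in TRAM2-KO2 against control (0.24, adjusted p = 0.0272), as it did without TRAM2-KO1 B (0.24, adjusted p = 0.0179). The difference between the guides no longer passed without control A, control B, TRAM2-KO1 C, TRAM2-KO2 A or TRAM2-KO2 B (adjusted p = 0.0559, 0.0525, 0.0914, 0.109 and 0.119), where its log2 fold change was 0.35 to 0.39. Nor did that difference pass with length offsets or in the fit of the 6 libraries compared. Basal epithelial markers differed between the same groups: their summed level was 4237 to 4354 TPM in TRAM2-KO1 and 4995 to 5107 TPM in TRAM2-KO2 libraries, against 4618 to 4740 TPM in control libraries. Past the test, 8 of 11 tested markers were higher in TRAM2-KO2 than in TRAM2-KO1 cells and 0 were lower. Of all tested genes, 1.42% were higher and 0.867% lower in that comparison. The part of base composition and of this marker difference in the SLC7A5 result was not tested.

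**Figure D4:**
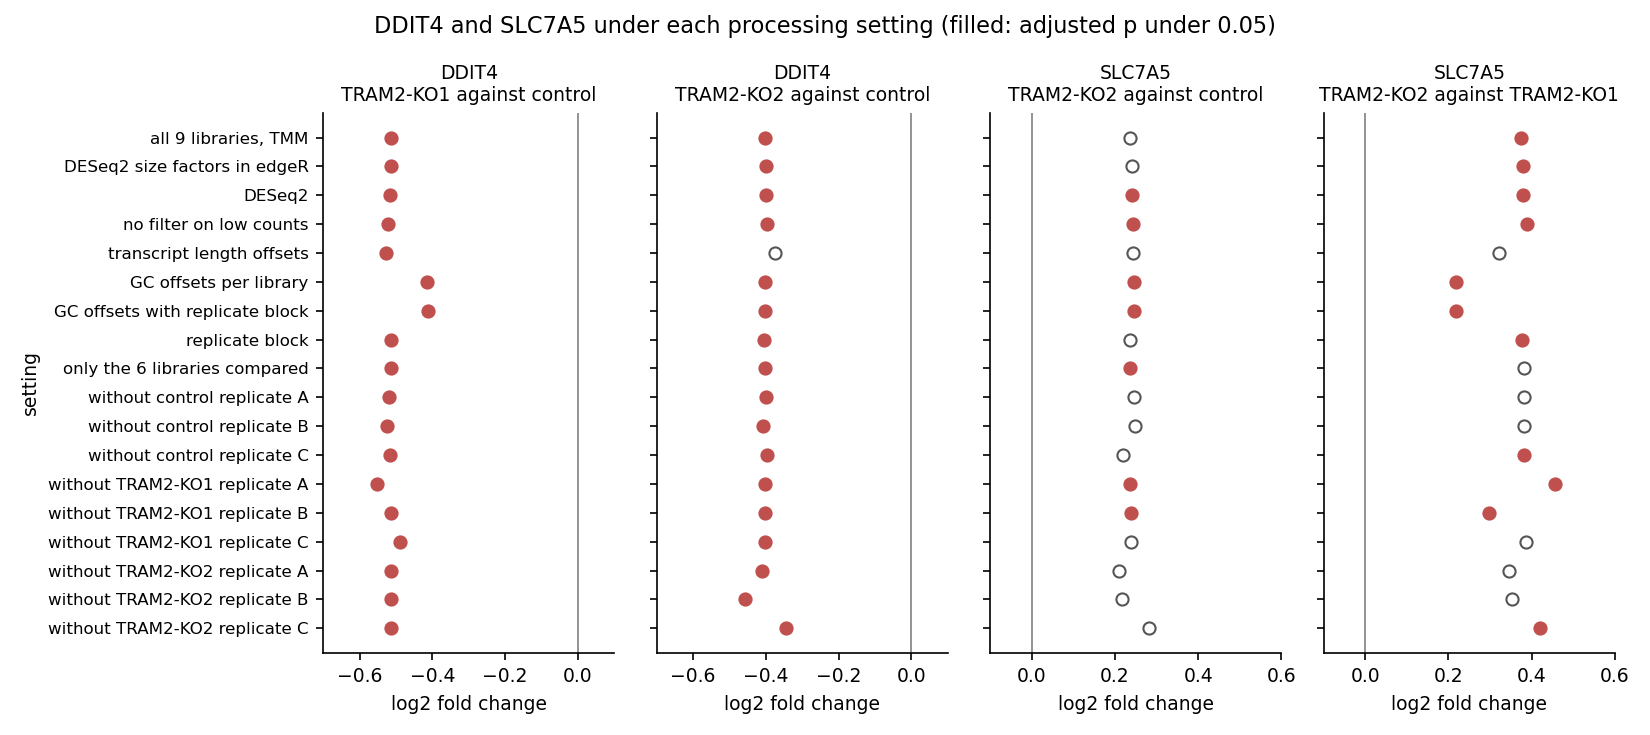
Log2 fold change (x axis) of DDIT4 with each guide against control, of SLC7A5 in TRAM2-KO2 against control and of SLC7A5 in TRAM2-KO2 against TRAM2-KO1, under the fit reported and each of 17 alternative settings (rows), filled where the adjusted p was under 0.05. DDIT4 passed in TRAM2-KO1 cells under every setting shown, while the side of the threshold of both SLC7A5 comparisons depended on the setting and their sign did not.

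Levels of the 10 genes can be set side by side in TPM. In control libraries the means were 229 ± 4.42 TPM for SLC7A5, 209 ± 8.10 for SLC3A2, 53.9 ± 0.196 for DDIT4, 32.8 ± 0.901 for PSAT1 and 22.9 ± 2.41 for ASNS (SD, n = 3). The lower 5 were PSPH at 19.2 ± 1.76 TPM, PHGDH at 16.5 ± 1.82, TRIB3 at 13.8 ± 0.519, SESN2 at 7.57 ± 0.218 and CHAC1 at 0.738 ± 0.208. PSPH and PHGDH were the only neighbours in this order whose control libraries overlapped. In TRAM2-KO1 libraries DDIT4, at 36.9 ± 2.16 TPM, overlapped PSAT1, at 35.4 ± 1.01, and SLC3A2, at 229.6 ± 11.8, overlapped SLC7A5, at 214 ± 24.1. In TRAM2-KO2 libraries SLC7A5 averaged 273 ± 11.9 TPM and SLC3A2 245 ± 10.3.

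The way reads were shared among transcripts affected TPM levels of some of the genes. DDIT4-001 took between 96.7% and 100% of the reads of DDIT4 in every library, TRIB3-201 between 98.0% and 100% of those of TRIB3, and SESN2 had 1 transcript. ASNS was spread over 8 of 17 transcripts at more than 1% of its reads, and the share of ASNS-205 was 48.2% to 67.1% in TRAM2-KO1 and 21.5% to 74.6% in TRAM2-KO2 libraries, against 71.5% to 80.5% in control libraries. ASNS in TPM was 28.7 ± 2.17 in TRAM2-KO1 and 30.3 ± 2.81 in TRAM2-KO2 libraries, against 22.9 ± 2.41 in control libraries, a wider gap than in CPM. For SLC3A2, SLC3A2-201 took 29.0% to 46.9% of the reads in TRAM2-KO1 and 43.7% to 52.8% in TRAM2-KO2 libraries, against 50.9% to 55.1% in control libraries, and its level in TRAM2-KO1 libraries was above control in TPM and slightly below it in CPM. With offsets for transcript length, the log2 fold changes in TRAM2-KO1 and TRAM2-KO2 against control were 0.34 and 0.39 for ASNS (adjusted p = 0.267 and 0.168) and 0.15 and 0.21 for SLC3A2 (adjusted p = 0.309 and 0.12), none past the test.

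Pseudogenes and copies took few reads. SLC7A5P2 held 16.0, 0 and 0 reads in TRAM2-KO1 and 33.7, 24.6 and 37.7 reads in TRAM2-KO2 libraries, against 35.6, 0 and 14.4 reads in control libraries, and SLC7A5P1 at most 9.5 reads in any library. These compare with 11806 to 22273 reads of SLC7A5. PSPHP1 held at most 13.3 reads and ASNSP1 at most 1 read. Of the paralogs, TRIB1, TRIB2, CHAC2, SESN1, SESN3, SLC7A6 and SLC7A8 passed in neither comparison with control in edgeR, while SLC7A6 passed in TRAM2-KO2 cells by DESeq2 (log2 fold change 0.14, DESeq2 adjusted p = 0.0488). DDIT4L, SLC7A7 and SLC3A1 held at most 13, 12 and 9 reads. SLC7A11, the cystine carrier xCT and, like SLC7A5, a light chain partner of SLC3A2, rose with both guides. SLC7A11 had 61.0, 64.4 and 63.9 CPM in TRAM2-KO1 and 60.1, 65.9 and 66.3 CPM in TRAM2-KO2 libraries, against 53.1, 49.1 and 52.6 CPM in control libraries (log2 fold change 0.29, SE 0.0492, adjusted p = 0.0091, and 0.31, SE 0.0489, adjusted p = 0.00454).

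Upstream of the 10 genes, mRNA of the sensors and of ATF4 showed no change past the test. ATF4 had 199.9, 190.8 and 191.5 CPM in TRAM2-KO1 and 202.7, 191.2 and 191.1 CPM in TRAM2-KO2 libraries, against 190.8, 190.2 and 185.1 CPM in control libraries, with log2 fold changes of 0.04 (interval −0.03 to 0.12) and 0.05 (−0.03 to 0.12). DDIT3, which encodes the stress factor CHOP, was low, at 3.65, 4.16 and 3.39 CPM in TRAM2-KO1 and 3.58, 4.31 and 3.17 CPM in TRAM2-KO2 libraries, against 4.08, 3.53 and 2.87 CPM in control libraries. EIF2AK3 and EIF2AK4, which encode PERK and GCN2, had log2 fold changes of −0.04 and 0.0008 with TRAM2-KO1, and of −0.13 and −0.03 with TRAM2-KO2. Of the 9 transcription factors listed with the response, ATF3, a stress-induced repressor and activator, rose with both guides. ATF3 had 10.4, 10.8 and 9.65 CPM in TRAM2-KO1 and 10.9, 12.1 and 12.7 CPM in TRAM2-KO2 libraries, against 8.49, 7.42 and 7.09 CPM in control libraries (log2 fold change 0.42, SE 0.0924, adjusted p = 0.0378, and 0.64, SE 0.0909, adjusted p = 0.00258). CEBPB, a C/EBP partner of ATF4, fell in TRAM2-KO1 cells (log2 fold change −0.27, adjusted p = 0.0374) and was at −0.04 in TRAM2-KO2 cells (adjusted p = 0.829), a difference between the guides that did not pass (0.22, adjusted p = 0.0815). By DESeq2 the CEBPB value in TRAM2-KO1 cells did not pass (DESeq2 adjusted p = 0.06). Among 18 genes of the kinases and the eIF2 module, PPP1R15A, which encodes the phosphatase subunit GADD34 that ends the response, rose in TRAM2-KO2 cells (log2 fold change 0.28, adjusted p = 0.0171) and did not pass in TRAM2-KO1 cells in edgeR (0.21, adjusted p = 0.0768), though it did by DESeq2 (DESeq2 adjusted p = 0.0241).

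By their medians, lists of genes that share the regulation or the pathways of the 10 genes moved little. For the counts below, 0.761% of all tested genes rose and 2.20% fell past the test in TRAM2-KO1 cells. In TRAM2-KO2 cells 1.75% of all tested genes rose and 2.50% fell. On the list of other ATF4 targets, 0 of 18 tested genes rose and 1 fell in TRAM2-KO1 cells. In TRAM2-KO2 cells 0 rose and 2 fell, and the list medians with the 2 guides were −0.02 and −0.03 on the log2 scale. ATF3 and SLC7A11, which rose with both guides, were counted on other lists. So were PPP1R15A and SLC38A2, which rose in TRAM2-KO2 cells, and the 0 covers this list and not all targets of ATF4. STC2, a secreted glycoprotein hormone, fell with both guides (log2 fold change −0.25, adjusted p = 0.00592, and −0.35, adjusted p = 0.000641), and VLDLR, a lipoprotein receptor, fell in TRAM2-KO2 cells (−0.34, adjusted p = 0.0362) and by DESeq2 also passed in TRAM2-KO1 cells (−0.31, DESeq2 adjusted p = 0.043). None of the 19 cytosolic aminoacyl-tRNA synthetases, 16 serine, glycine and one-carbon enzymes, 26 genes of mTORC1 amino acid sensing or 8 glutathione genes passed in edgeR in either comparison with control, with medians between −0.02 and 0.03. At an unadjusted p under 0.05 they counted 5, 1, 4 and 1 genes with TRAM2-KO1, beside 18.6% of all tested genes. With TRAM2-KO2 they counted 0, 2, 0 and 3, beside 15.0% of all tested genes. By DESeq2 1 synthetase (VARS1) and 1 sensing gene (TSC2) passed, both lower in TRAM2-KO1 cells and both named after their values were seen. For TRAM2-KO1, 6.05% of the genes with an adjusted p in DESeq2 passed. Of 15 genes of proline, aspartate, glutamine and asparagine metabolism, 0 passed in TRAM2-KO1 cells (0 by DESeq2, 5 at an unadjusted p under 0.05), while in TRAM2-KO2 cells GLUL, the glutamine synthetase, fell (−0.32, adjusted p = 0.000704). Of 18 other amino acid transporters, 1 rose in TRAM2-KO1 and 3 rose in TRAM2-KO2 cells and none fell. They were SLC7A11 with both guides and, in TRAM2-KO2 cells, the glutamine carriers SLC38A1 (0.16, adjusted p = 0.0225) and SLC38A2 (0.13, adjusted p = 0.0272). By DESeq2 SLC38A1 also passed in TRAM2-KO1 cells (0.12, DESeq2 adjusted p = 0.0191). Of the genes named in these lists that passed with 1 guide in edgeR, GLUL also differed between the guides (−0.24 in TRAM2-KO2 against TRAM2-KO1, adjusted p = 0.0101), while VLDLR, PPP1R15A, SLC38A1 and SLC38A2 did not pass in that comparison.

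**Figure D5:**
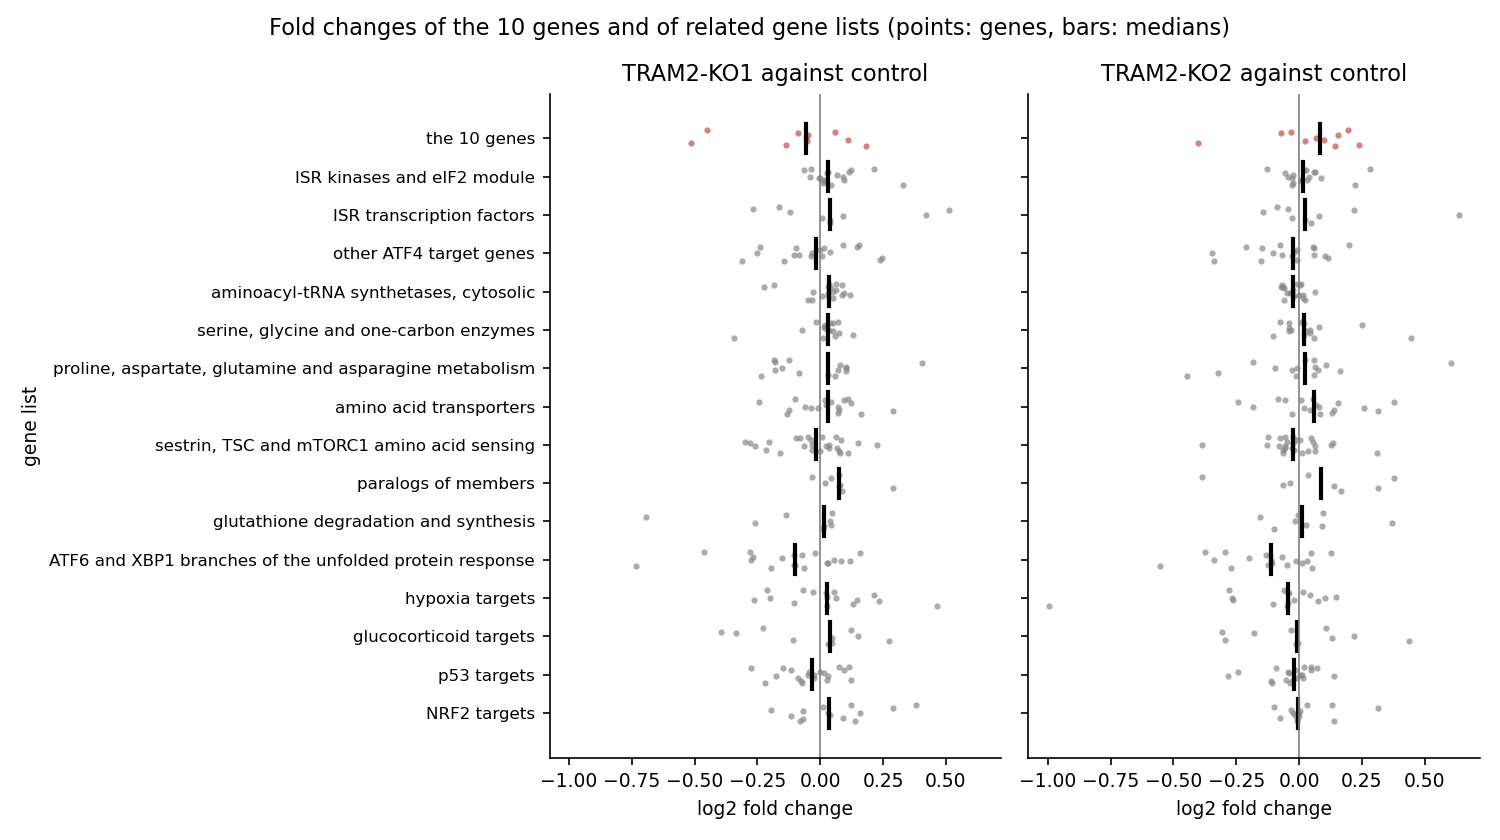
Log2 fold changes (x axis) of the 10 genes (red) and of the tested members of 15 related lists (grey, y axis), in TRAM2-KO1 and in TRAM2-KO2 cells against control, with a vertical bar at each median. Medians of the lists lie close to 0 with both guides, and the list of the ATF6 and XBP1 branches has medians of −0.10 and −0.11.

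DDIT4 also responds to hypoxia, glucocorticoids and p53, and lists of their targets were counted for comparison. Lists of the ATF6 and XBP1 branches and of NRF2 targets were counted as well. Whether any of these pathways acted on DDIT4 here was not tested. Of 19 genes of the ATF6 and XBP1 branches of the unfolded protein response, 0 rose and 6 fell with each guide, with medians of −0.10 and −0.11. PDIA4, a disulphide isomerase of the endoplasmic reticulum, fell by 0.73 in TRAM2-KO1 and by 0.55 in TRAM2-KO2 cells on the log2 scale, and the chaperone genes HYOU1, HSP90B1 and HSPA5 fell with both guides. Of 16 hypoxia targets, 1 rose and 3 fell in TRAM2-KO1 and 0 rose and 3 fell in TRAM2-KO2 cells, among them P4HA1, ADM and ANGPTL4 with both guides (log2 fold changes of −0.21, −0.20 and −0.26 with TRAM2-KO1, and of −0.28, −0.27 and −0.26 with TRAM2-KO2), while PDK1 rose in TRAM2-KO1 cells (0.23). For P4HA1, ADM and ANGPTL4 the edgeR adjusted p was 0.0298, 0.0409 and 0.04995 with TRAM2-KO1, the last just under the threshold. With TRAM2-KO2 it was 0.00493, 0.00644 and 0.0390. Of 10 glucocorticoid targets, 1 rose and 0 fell in TRAM2-KO1 and 1 rose and 1 fell in TRAM2-KO2 cells. ERRFI1, a feedback inhibitor of the EGF receptor, rose with both guides (0.28 and 0.44), and DUSP1, a phosphatase of MAP kinases, fell in TRAM2-KO2 cells (−0.29). Of 20 p53 targets, 0 passed in TRAM2-KO1 cells (0 by DESeq2, 4 at an unadjusted p under 0.05, beside 18.6% of all tested genes). BTG2, an antiproliferative gene, fell in TRAM2-KO2 cells (−0.28). Of 14 NRF2 targets, 2 rose in TRAM2-KO1 cells (SLC7A11 and TXNRD1) and 1 in TRAM2-KO2 cells (SLC7A11).

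Over the 9 libraries, the genes whose log2 CPM followed DDIT4 most closely were CHST3, ITGB5 and H6PD, with Pearson r of 0.996, 0.977 and 0.977. For SLC7A5 they were LLGL2, JUP and ESRP2 (0.988, 0.985 and 0.984), and for SLC3A2 they were ELMO3, TIMM29 and CCNF (0.974, 0.963 and 0.962). These values are descriptions over 9 libraries that share groups, depth and base composition, taken as the highest among 15109 genes.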

How the data were processed

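RNA of 9 libraries was sequenced as poly(A)-selected TruSeq libraries. The authors trimmed reads with cutadapt and quantified transcripts with Salmon, per the labels (versions and transcript release: not given in the sources used here). The deposited files give the authors' estimated counts of reads per transcript from Salmon, not normalised, and deposited TPM values scaled over all transcripts of a library. Effective length was most often the transcript length less 249 nt in the library where it was checked, and the other libraries were not checked.

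Both values were summed per gene symbol of GENCODE release 44 on GRCh37 (matched for 97.5% of 226030 transcripts), possibly another build than theirs; 98.4% to 98.5% of reads fell on these genes. Estimated counts were rounded, filtered with filterByExpr (minimum count 10) and scaled by TMM, and a quasi-likelihood model with the 3 groups was fitted in edgeR 4.0.16 (R 4.3.3) to all 9 libraries, with two-sided tests and Benjamini-Hochberg adjustment over 15109 genes. The procedure was tested on simulated data. GC content refers to the longest transcript of a gene. Promoter sequences are from RefSeq, GRCh38.p14.

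The 10 genes and the related lists were chosen with earlier results of these data known. The text names the 10 genes, TRAM2, ATF4, DDIT3, ATF3, EIF2AK3 and EIF2AK4, paralogs and pseudogenes with reads, and from each list up to 4 genes per direction with the smallest p among those past the test, and likeness was taken for the 3 members with the smallest p. A result that this rule takes is not reported here. Alternatives were DESeq2 1.42.0 and its size factors, no filter, offsets for transcript length or GC content (spline with 4 degrees of freedom), the replicate letter as a block, a fit of the 6 libraries compared, and leaving out each library. Intervals are at 95%.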

Additional observations from a re-analysis of the deposited data

Results flagged for a closer look

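SLC7A5 was singled out because the effects of the 2 guides on it differed by a direct test: it was higher in TRAM2-KO2 than in TRAM2-KO1 cells by 0.37 on the log2 scale (SE 0.0713, adjusted p = 0.0258), and each of 3 TRAM2-KO2 libraries lay above each TRAM2-KO1 library. The GC content of the libraries moved with it, and the cause was not tested. Among named genes of the related lists, the same test of TRAM2-KO2 against TRAM2-KO1 passed for PDIA4 (0.18, adjusted p = 0.00866) and ERRFI1 (0.16, adjusted p = 0.0267), and for GLUL (−0.24, adjusted p = 0.0101), DUSP1 (−0.18, adjusted p = 0.0276) and TXNRD1 (−0.16, adjusted p = 0.0239).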

How the results depend on the processing

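Of 558 log2 fold changes of the 10 genes and TRAM2 recomputed under 17 alternatives, 506 kept their direction and their side of the threshold, 15 newly passed it, 8 no longer did (DDIT4 with TRAM2-KO2 under length offsets, and 7 for SLC7A5 between the guides) and 29 changed sign, none of the last past the test. CHAC1 had no adjusted p in DESeq2. The cause of these shifts was not tested beyond what each setting changes, and the reads behind CHAC1 and DDIT3 limit what could be seen for them.

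Of the 10 genes, 2 passed in TRAM2-KO2 against control with DESeq2, with no filter and with GC offsets (DDIT4 and SLC7A5), 3 in the fit of the 6 libraries compared and with GC offsets plus replicate block (SLC3A2 added), and 0 with length offsets. Between the guides 2 passed with DESeq2, with no filter, with GC offsets plus replicate block and with the replicate block (SLC7A5 and SLC3A2), and 0 with length offsets and in the fit of 6 libraries. Leaving out single libraries gave 1 to 2 of the 10 genes for each guide against control and 0 to 2 between the guides.

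Of all genes, 447 passed for TRAM2-KO1 (112 with length offsets, 288 with 6 libraries, 244 to 1965 without single libraries), 642 for TRAM2-KO2 (153 with length offsets, 1006 with GC offsets, 326 to 773 without single libraries) and 346 between the guides (584 with DESeq2, 582 with no filter, 49 with length offsets, 116 with 6 libraries, 107 to 1846 without single libraries). The highest counts of TRAM2-KO1 and of the guide comparison were those without TRAM2-KO1 A.

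The replicate letters did not pair the libraries (deviations of same-letter libraries correlated at −0.09 to 0.09, of others at −0.15 to 0.12). With the letter as a block, 417, 567 and 288 genes passed for TRAM2-KO1, for TRAM2-KO2 and between the guides, and SLC3A2 between the guides passed (0.20, adjusted p = 0.0405).

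Values that changed sign, none past the test there, were as follows. With GC offsets, and with GC offsets plus replicate block, TRAM2-KO1 against control gave 0.116 and 0.118 for TRIB3, 0.0387 and 0.0388 for SESN2, and 0.0285 and 0.0287 for SLC7A5. The guide comparison gave 0.0026 and 0.0033 for ASNS, −0.0368 and −0.0374 for TRIB3, 0.0311 and 0.0312 for PSAT1, and −0.105 and −0.107 for SESN2. With length offsets, TRAM2-KO1 gave 0.0237 for PSPH and 0.152 for SLC3A2, and the guide comparison 0.0495 for ASNS, 0.0256 for PSAT1 and −0.0029 for PSPH. With no filter, PSAT1 was at 0.0048 between the guides. Without single libraries, PHGDH ranged from −0.0091 to 0.0958 with TRAM2-KO1 and from −0.0914 to 0.0037 with TRAM2-KO2, and CHAC1 from −0.0142 to 0.357 with TRAM2-KO2. Between the guides ASNS ranged from −0.0834 to 0.0035, PSAT1 from −0.0241 to 0.0172, SESN2 from −0.0259 to 0.0503 and TRAM2 from −0.0037 to 0.0413.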
